A study of Mus musculus with 16 samples.

Results

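Purinergic signalling genes were examined in microglia, the resident macrophages of the brain, taken from the hippocampus of mice at 20 months (aged) and at 3 months (young). The 9 genes were chosen by symbol as the purinergic and related receptors P2ry12, P2ry13, P2ry14, P2ry6, P2rx4, P2rx7, Adora3 and Gpr34 together with the ectonucleotidase Entpd1. They are 9 of the 24015 rows of the deposited table, and each symbol was found once. The aged group and the young group held 6 samples each. All mice carried the strain label C57BL/6, with no transgene or treatment given, except that the labels of aged 5 and aged 6 end in another digit. After mechanical dissociation and myelin removal, flow cytometry collected live cells with CD11b and little CD45 for each sample. Whether each sample came from a single mouse is not stated in the labels, and p-values therefore reflect only how much these 12 samples vary, which may be partly technical. Sex is not given by the labels used here, but in both ages the X-inactivation transcript Xist was near 0, with means of 3.84 normalized counts at 20 months and 2.79 at 3 months, while Y-linked Ddx3y averaged 1785 and 1790.

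Microglia sense damage through extracellular nucleotides. ATP leaving cells opens ion channels of the P2X family, while ADP, UDP and UDP-sugars act on G protein-coupled P2Y receptors, some of which steer microglial processes towards injury or start phagocytosis. Ectonucleotidases on the cell surface remove ATP and ADP stepwise, and the adenosine formed at the end of the chain acts on its own receptors.

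The table holds normalized counts, that is, reads per gene divided by a size factor for the sample. The 8 samples with 1 library held 24.2 to 31.6 M reads at 20 months and 11.4 to 47.3 M reads at 3 months. The columns of young 2, young 4, aged 3 and aged 6 are means of 2 technical libraries each. The sorted cells carried the genes of their gate: Itgam and Ptprc, which encode CD11b and CD45, summed to 2639 ± 306 CPM (normalized counts scaled to a common total per sample) at 20 months and 2669 ± 242 CPM at 3 months (SD, n = 6 each). The microglial gene Tmem119 averaged 222139 ± 14417 normalized counts at 20 months and 227643 ± 9785 at 3 months. Fcrls, another gene of homeostatic microglia, was 81767 to 100011 at 20 months and 116985 to 131757 at 3 months, without overlap, and was called lower (log2 fold change -0.47, limma adjusted p = 3.8e-04). A sum of 6 monocyte genes was 5.14 ± 0.675 CPM at 20 months and 3.23 ± 0.904 CPM at 3 months (exact permutation test, two-sided, p = 0.0043, adjusted over 17 marker lists 0.0245). None of the 3 tested monocyte genes was called, and Ccr2, the most abundant, averaged 99.4 and 65.6 normalized counts (limma adjusted p = 0.390). Cd79b, a B cell gene, was called lower, at 864 ± 72.0 normalized counts in aged and 1108 ± 85.2 in young samples (limma adjusted p = 0.0379). Of the astrocyte genes Aldh1l1 was called higher, at 57.2 ± 26.5 normalized counts in aged and 19.4 ± 8.37 in young samples (adjusted p = 0.0411). It was the only 1 of 4 tested astrocyte genes called, and Slc1a3, the most abundant, averaged 6351 and 6091 (adjusted p = 0.894). The 7 astrocyte genes summed to 245 ± 28.9 CPM at 20 months and 229 ± 19.9 CPM at 3 months (adjusted exact p = 0.603). Border macrophage genes summed to 15.9 ± 8.02 CPM at 20 months and 11.4 ± 2.40 CPM at 3 months (adjusted exact p = 0.541), and 3 of 6 mast cell genes were at 0 in all samples. In bulk samples, fewer cells of a type and less RNA per cell cannot be told apart. The part of these levels in the results on purinergic genes was not tested.

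The 9 genes together made up 1.27% to 1.49% of all normalized counts in the aged samples and 1.47% to 1.72% in the young samples. Only the highest aged sample, aged 6, passed the lowest young sample, young 4. Most of this sum came from P2ry12, P2ry13, Gpr34 and Entpd1. By normalized counts, P2ry12 ranked 10th of all rows at 20 months and 8th at 3 months. To compare genes, counts were divided by exon length. On that scale P2ry12 had a mean level of 69228 normalized counts per kilobase at 20 months and 78530 at 3 months. P2ry13 followed with 29823 at 20 months and 37097 at 3 months, and Gpr34 with 27200 at 20 months and 33471 at 3 months, all per kilobase. The ranges of P2ry13 and Gpr34 over samples overlapped in both ages, so their order is not beyond their spread. Entpd1 (5111 per kilobase at 20 months, 5492 at 3 months) and P2ry6 (3934 and 4084) stood lower by a wide margin. The ion channels and the adenosine receptor were lower still: P2rx7 at 1960 per kilobase in aged samples and 2044 in young ones, Adora3 at 993 and 930, and P2rx4 at 429.7 and 420.4. P2ry14 was close to 0. This order of means was the same at both ages, and all neighbours other than P2ry13 and Gpr34 had separate ranges.

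**Figure D1:**
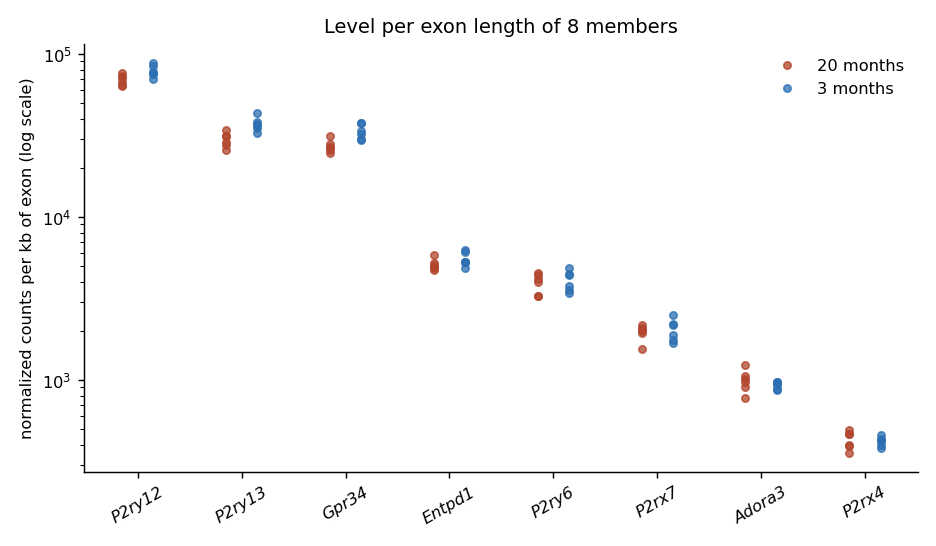
Levels of the 8 abundant genes in each of 12 samples, as normalized counts per kilobase of exon on a log axis, with 20 months (red) left of 3 months (blue). Means run from 69228 per kilobase at 20 months and 78530 at 3 months for P2ry12 to 429.7 and 420.4 for P2rx4, and only P2ry13 and Gpr34 overlap as neighbours.

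Between the ages, none of the 8 genes with enough counts passed the test across all genes (limma, adjusted p under 0.05), against 1.73% of the 11579 genes tested, of which 1.27% were higher and 0.458% lower at 20 months. At an unadjusted p under 0.05, which 10.8% of all tested genes reached in either direction, P2ry13, Gpr34 and P2ry12 were lower at 20 months and no gene was higher. That is 3 of 8, against 4.98% of all tested genes in that direction. Among the 381 tested genes with a mean of at least 10000 normalized counts, 12.6% were lower and 4.72% higher at an unadjusted p under 0.05. All 3 of these receptors belong to that abundant class, and so do Entpd1, P2ry6 and P2rx7, which did not reach that p. The median log2 fold change of the 8 genes was -0.08 (20 months over 3 months), with 6 below 0 and 2 above, against 0.0016 over all tested genes and -0.03 over the abundant ones. No gene of the 8 had ages that did not overlap, against 1.87% of all tested genes. In the 8 samples with 1 library, where whole reads were recovered, edgeR and DESeq2 each called 1 of the genes, Gpr34, lower at 20 months, against 0.13% of all genes with edgeR and 0.441% with DESeq2.

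P2ry12, P2ry13 and P2ry14 lie side by side on the minus strand of chromosome 3 (mm10), at 59216272 to 59262871, 59207892 to 59210882 and 59113855 to 59153618. All 3 sit inside Med12l, a Mediator subunit gene on the plus strand, with which only P2ry12 shares exon sequence, 9 bases or 0.353% of its exons. The kit does not mark the strand, so reads from that stretch cannot be assigned, but Med12l had only 1141 ± 154 normalized counts at 20 months and 1126 ± 135 at 3 months (log2 fold change 0.02, adjusted p = 0.979). These neighbouring genes included the highest and the lowest level of the 9. The 250 bases before their RefSeq starts (GRCm38.p6, minus strand, the first of 4 starts for P2ry14) are shown so that these unequal levels can be read beside a short motif all 3 hold. Capitals mark AGGAAG, a form of the core bound by PU.1, the lineage factor of macrophages and microglia. Their windows are chr3:59262986-59263235, chr3:59210883-59211132 and chr3:59153493-59153742.
P2ry12: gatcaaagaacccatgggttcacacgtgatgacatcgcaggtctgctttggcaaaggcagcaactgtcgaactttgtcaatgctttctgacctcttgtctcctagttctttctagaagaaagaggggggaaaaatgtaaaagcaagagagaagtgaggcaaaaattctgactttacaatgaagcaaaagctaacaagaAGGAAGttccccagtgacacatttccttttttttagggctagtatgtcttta
P2ry13: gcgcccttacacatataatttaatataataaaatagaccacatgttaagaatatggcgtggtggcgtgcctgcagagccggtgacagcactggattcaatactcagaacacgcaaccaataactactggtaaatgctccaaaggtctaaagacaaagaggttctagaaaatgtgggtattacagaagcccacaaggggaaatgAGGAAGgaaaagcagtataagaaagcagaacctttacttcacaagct
P2ry14: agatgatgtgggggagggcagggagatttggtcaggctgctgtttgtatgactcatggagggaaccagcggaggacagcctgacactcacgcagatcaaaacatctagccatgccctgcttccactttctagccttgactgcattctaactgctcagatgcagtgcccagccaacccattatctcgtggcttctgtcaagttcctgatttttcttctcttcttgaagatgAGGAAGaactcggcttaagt
The motif lies at bases 52 to 47 before the start in P2ry12, 47 to 42 in P2ry13 and 20 to 15 in P2ry14, each time on the strand of the gene. Searched on both strands, AGGAAG occurs in 29.5% of all 32851 RefSeq promoter windows of this length, so its presence is common. It was in the abundant P2ry12 as well as in P2ry14, which was near 0, and the other 3 P2ry14 windows held none. Of the 9 genes, 7 matched the promoter table, with 12 starts. Adora3 held AGGAAG on the opposite strand, and 1 of 2 starts each of P2rx7 and Entpd1 held it too.

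P2ry12, the ADP receptor that directs microglial processes to injury and a standard marker of homeostatic microglia, had 160820, 175901 and 195151 normalized counts in aged samples (lowest, median, highest) and 178037, 196746 and 222420 in young samples. Of the aged samples, 3 lay below every young sample, and 4 young samples lay above every aged one. The mean was 176254 ± 13458 at 20 months and 199938 ± 16068 at 3 months (SD, n = 6 each), a log2 fold change of -0.18 (SE 0.07, 95% interval -0.33 to -0.03, limma adjusted p = 0.324). The estimate stayed below 0 in all 28 alternative fits, between -0.24 and -0.07, and passed the adjusted threshold in none.

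P2ry13, a second ADP receptor of microglia coupled to the same class of inhibitory G protein, showed the largest log2 fold change of the 8 genes. It had 65456, 75993 and 85725 normalized counts in aged samples and 82421, 92131 and 110470.0 in young ones. The overlap came from 1 aged sample above the lowest young sample: 5 aged samples were below all young samples and 5 young ones above all aged ones. Means of 75392 ± 7350 at 20 months and 93780 ± 9506 at 3 months gave a fold of 0.804 (log2 fold change -0.31, SE 0.08, 95% interval -0.48 to -0.15, adjusted p = 0.0584). The adjusted p crossed 0.05 in 6 of 28 alternatives. Without aged 5 it was 0.0240, without young 3 it was 0.0409, and with counts scaled by TMM it was 0.0461. Without both aged 5 and aged 6, whose strain labels end in another digit, it was 0.0232 (log2 fold change -0.38). With quantile normalization, however, it was 0.117 (log2 fold change -0.24). In the 8 samples with 1 library limma gave 0.272, and in the 4 with 2 libraries 0.966. Young 1 was the shallowest of the 8 samples with 1 library and the highest sample for this gene. Without young 1 the estimate was -0.27 and the adjusted p 0.122.

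Gpr34 is a receptor for lysophosphatidylserine that resembles P2Y receptors in sequence and is strongly expressed by microglia. It lies on the plus strand of chromosome X at 13632089 to 13640858, inside Cask, a scaffold protein gene on the other strand. Its lowest, median and highest values were 51379, 55940 and 65313 normalized counts at 20 months and 61671, 69271 and 78455 at 3 months. Again 5 of 6 aged samples were below all young samples, and 4 young samples were above all aged ones. The mean was 56848 ± 4861 at 20 months and 69955 ± 7316 at 3 months, a fold of 0.814 (log2 fold change -0.30, SE 0.08, 95% interval -0.46 to -0.13, adjusted p = 0.0679). The adjusted p was under 0.05 in 6 of 28 alternatives. It was 0.0285 without aged 6 and 0.0392 without both aged 5 and aged 6 (log2 fold change -0.34), but 0.177 without aged 3. In the 8 samples with 1 library limma gave 0.0412, edgeR 0.0263 and DESeq2 6.4e-04, while in the 4 with 2 libraries limma gave 0.999 (log2 fold change -0.10). The difference was smaller in the samples with 2 libraries. Aged over young, the ratio of means was 0.760 over 4 and 4 samples with 1 library and 0.938 over 2 and 2 samples with 2 libraries. For P2ry12 these ratios were 0.849 and 0.954, and for P2ry13 0.792 and 0.829. Whether the ratios differ between the sets was not tested. Fcrls, given above, also lay lower in aged samples.

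**Figure D2:**
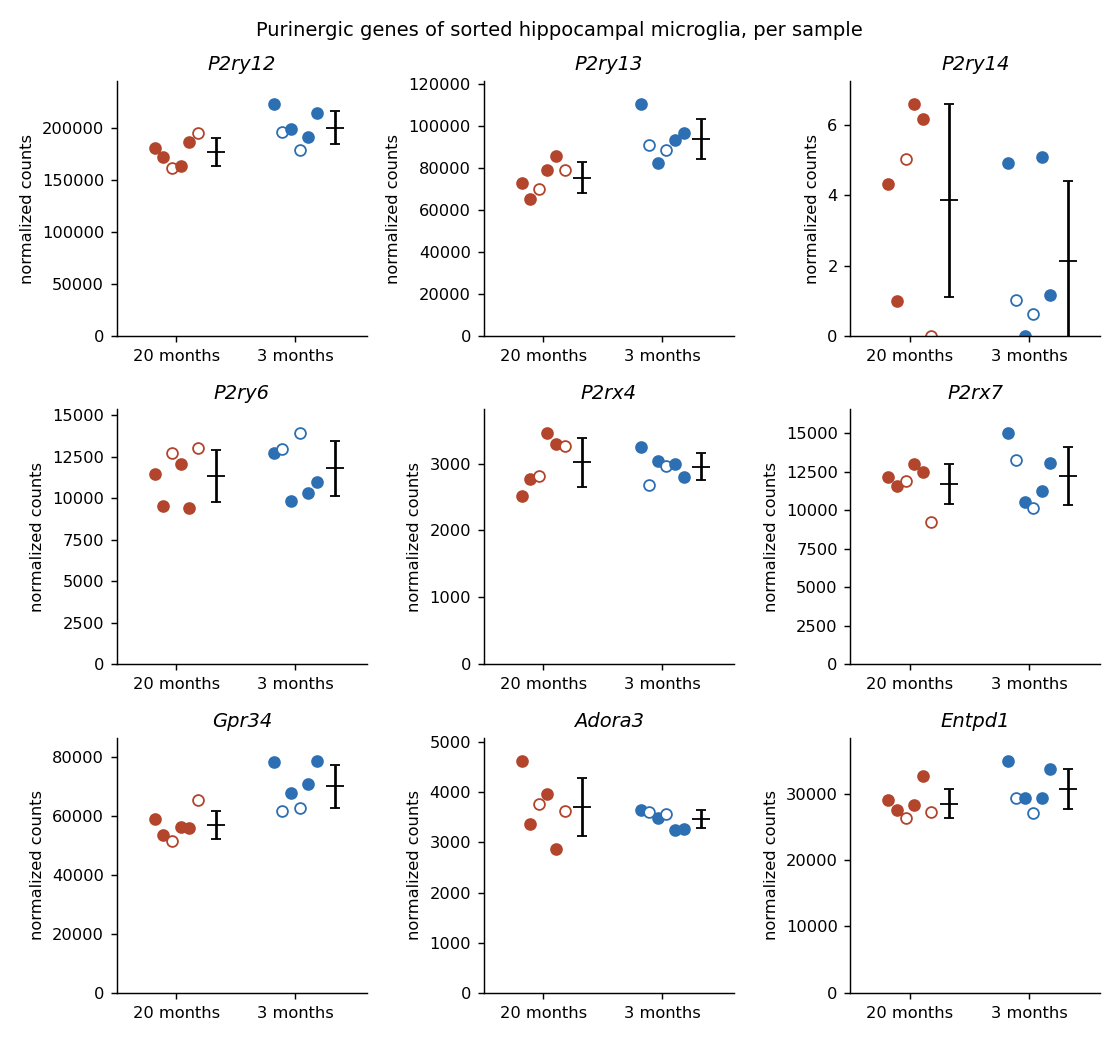
Normalized counts of the 9 genes in each sample on linear axes that start at 0, with 20 months (red) left of 3 months (blue). Filled circles are samples with 1 library, open circles are means of 2 technical libraries, and the black mark gives the mean and SD of 6 samples (the lower SD bar of P2ry14 at 3 months ends below 0 and is not drawn in full). P2ry13 and Gpr34 each show 5 aged samples below all young ones, while the ages overlap widely for P2ry6, P2rx4, P2rx7 and Adora3.

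P2ry6, the UDP receptor linked to microglial phagocytosis, lies on the minus strand of chromosome 7 at 100937630 to 100974649. It had 9419, 11751 and 13010.5 normalized counts in aged samples (lowest, median, highest) and 9829, 11833 and 13943 in young ones. Both ages covered almost the same range (log2 fold change -0.05, SE 0.10, 95% interval -0.27 to 0.16, adjusted p = 0.924). The interval spans folds of 0.830 to 1.12, so a difference the size of that in P2ry13 lies just outside it. The level was higher in samples with 2 libraries, a difference that was not tested. The 4 samples with 2 libraries had 12693 to 13943 normalized counts, and the 8 with 1 library had 9419 to 12715, with almost no overlap.

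P2ry14, the receptor for UDP-glucose and related UDP-sugars, was close to 0. It had 0, 4.68 and 6.59 normalized counts at 20 months (lowest, median, highest) and 0, 1.09 and 5.09 at 3 months. In the samples with 1 library these were 5, 1, 6 and 6 reads in aged 1, 2, 4 and 5, and 2, 0, 9 and 1 reads in young 1, 3, 5 and 6. The 0 reads of young 3 allow up to 1.96 normalized counts, a floor of 3 reads that covers counting error only. No sample reached the 10 normalized counts required for testing. With no such requirement the log2 fold change was 0.63 (SE 0.58, adjusted p = 0.849), so a difference was not detectable at this depth.

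The ion channels P2rx7 and P2rx4 are neighbours on the plus strand of chromosome 5, at 122643911 to 122691432 and 122707544 to 122729738. P2rx7, the low-affinity ATP channel that triggers the NLRP3 inflammasome and release of interleukin-1β, had 9219, 12009.6 and 12956 normalized counts in aged samples and 10116, 12135 and 15018 in young ones. Its ages overlapped (log2 fold change -0.05, SE 0.10, 95% interval -0.27 to 0.16, adjusted p = 0.919), and the sign turned without young 1, the highest sample (0.0079). P2rx4, a channel of higher ATP affinity that is induced in spinal microglia after nerve injury, had 2519, 3038 and 3460 normalized counts at 20 months and 2675, 2976 and 3246 at 3 months. Here too the ages overlapped (log2 fold change 0.03, SE 0.08, 95% interval -0.15 to 0.20, adjusted p = 0.958), and the sign was negative in 7 of 28 alternatives.

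Adora3, the adenosine A3 receptor, which inhibits adenylyl cyclase, lies on the plus strand of chromosome 3 at 105870858 to 105908926. It shares 779 exon bases, 20.9% of its exons, with Tmigd3 on the same strand, so its counts may hold reads of that gene. Tmigd3 was not found among the deposited values, so it could not be analysed. Adora3 had 2874, 3697 and 4619 normalized counts at 20 months and 3238, 3525 and 3644 at 3 months. The aged samples reached both below and above all young samples. Means of 3704 ± 586 in aged and 3469 ± 175 in young samples gave a log2 fold change of 0.08 (SE 0.09, 95% interval -0.11 to 0.28, adjusted p = 0.860). The coefficient of variation was 15.8% at 20 months and 5.03% at 3 months, and for P2rx4 it was 12.2% and 6.68%. The difference in spread was not tested. For P2rx7 the order was the reverse, at 11.2% in aged and 15.5% in young samples.

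Entpd1, which encodes CD39, the surface enzyme that removes phosphates from ATP and ADP to leave AMP, lies on the plus strand of chromosome 19 at 40612366 to 40741602. It had 26299, 27963 and 32602 normalized counts in aged samples and 27065, 29389.9 and 34896 in young ones. Only 1 aged sample was below all young samples and 2 young samples were above all aged ones. The log2 fold change was -0.10 (SE 0.07, 95% interval -0.26 to 0.05, adjusted p = 0.736) and stayed below 0 in all 28 alternatives. The next enzyme of the chain, Nt5e (CD73), which turns AMP into adenosine, averaged 0.288 normalized counts in aged and 0.102 in young samples. Entpd2, a relative of Entpd1 that acts mainly on ATP, was listed at 0 in every aged sample and averaged 0.589 in young ones.

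**Figure D3:**
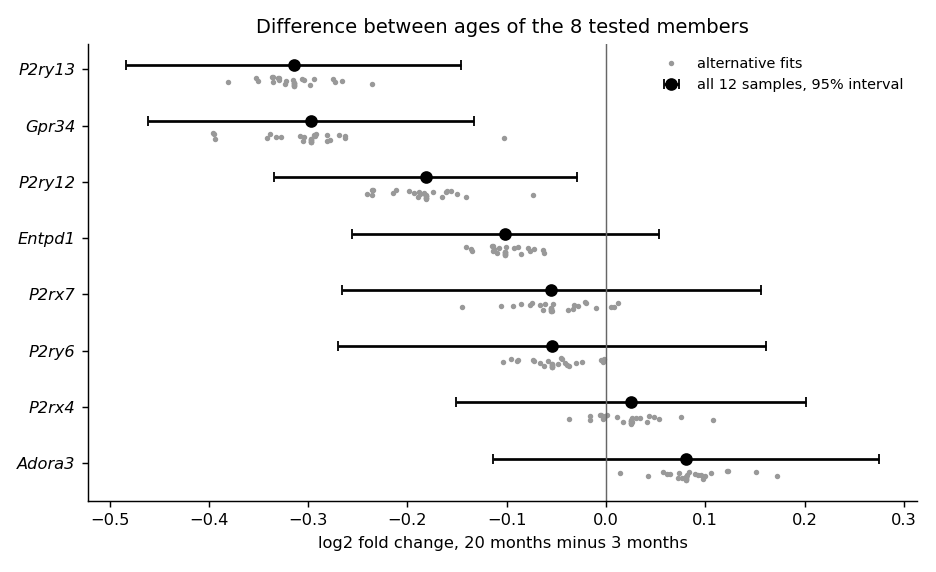
Log2 fold change (20 months minus 3 months) of the 8 tested genes, ordered from the most negative. Black points and bars give the estimate and 95% interval from all 12 samples, and grey dots give the 28 alternative fits. The intervals of P2ry13, Gpr34 and P2ry12 lie below 0 before adjustment, at -0.48 to -0.15, -0.46 to -0.13 and -0.33 to -0.03, and the other 5 cross 0.

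Samples of the same age also differed together. After the mean of each age was removed, P2ry12 and Gpr34 deviated in the same direction over the 12 samples (Pearson r = 0.82, permutation p = 0.0014, adjusted over 28 pairs 0.0386). Spearman's rho was 0.72 (permutation p = 0.0108, adjusted 0.152), and r without the 2 samples farthest from the median of P2ry12 was 0.68. P2ry12 and Entpd1 had r = 0.74 (permutation p = 0.0067, adjusted 0.063), rho 0.62 (permutation p = 0.0350, adjusted 0.238) and r = 0.89 without those 2 samples. The neighbours P2ry12 and P2ry13 had r = 0.60 (permutation p = 0.0399, adjusted 0.166), rho 0.55 (permutation p = 0.0731, adjusted 0.238) and 0.40 without the 2 farthest samples. P2ry12 and P2ry6 had r = -0.17 (permutation p = 0.598, adjusted 0.811), rho -0.22 (permutation p = 0.50, adjusted 0.823) and r = -0.63 without the 2 farthest samples. Pairs without P2ry12 reached similar values. P2ry13 and Entpd1 had r = 0.74 (permutation p = 0.0060, adjusted 0.063), but 0.40 without the 2 samples farthest from the median of P2ry13. P2rx7 and Entpd1 had rho 0.73 (permutation p = 0.0082, adjusted 0.152). Only P2ry12 with Gpr34 passed the adjustment, and only by Pearson's r. The permutations moved deviations freely over the 12 samples, across ages, and took no account of the removed age means. The p-values of these correlations may therefore be too small, and the pass of P2ry12 with Gpr34 is not firm. All genes of a sample share its size factor, and young 1 was highest for P2ry12, P2ry13, P2rx7 and Entpd1.

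**Figure D4:**
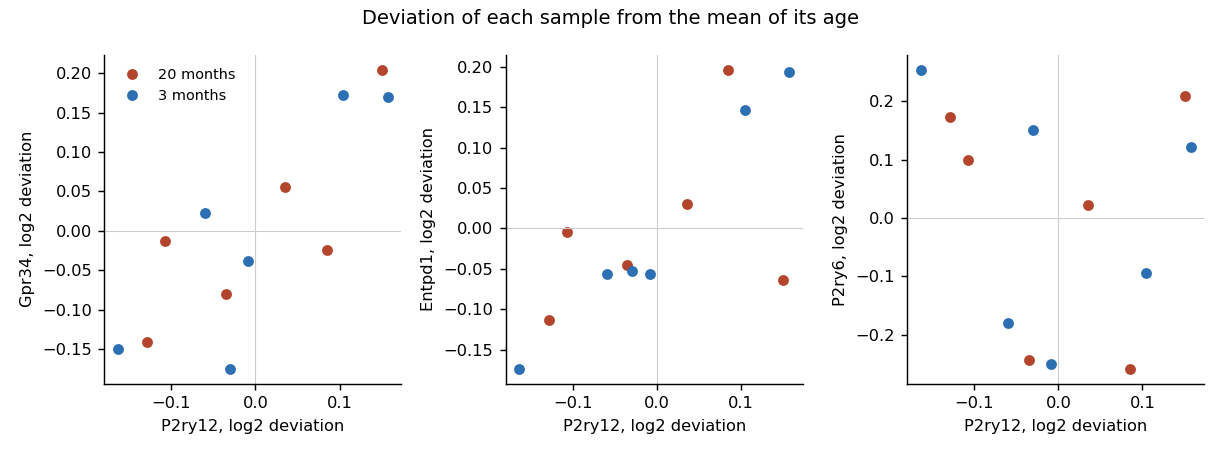
Deviation of each of 12 samples from the mean of its own age on the log2 scale, for Gpr34, Entpd1 and P2ry6 (vertical axes) against P2ry12 (horizontal axes), with 20 months in red and 3 months in blue. Pearson's r is 0.82 for Gpr34, 0.74 for Entpd1 and -0.17 for P2ry6.

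Across all tested genes, the closest patterns by the same within-age Pearson r (12 samples, a description with no test) were Gdap2 (0.92), Ak3 (0.91) and Capza2 (0.91) for P2ry12. For P2ry13 they were Ptgs1 (0.93), Rffl (0.92) and Pomk (0.92), and for Gpr34 Ndfip2 (0.97), Ube2d3 (0.92) and 1300002E11Rik (0.91). P2ry6 was closest to Trim28 (0.96), Lrrc25 (0.95) and Fam217b (0.95). P2rx7 was closest to Cpt1a (0.98), Sema4d (0.96) and Sgms1 (0.94), and P2rx4 to Ccrl2 (0.94), Rassf1 (0.93) and Ubac1 (0.92). For Adora3 the closest were 4930414L22Rik (0.96), 2810002D19Rik (0.94) and Ntn3 (0.92), and for Entpd1 Nek7 (0.97), Cwc25 (0.95) and Tm9sf3 (0.95). No gene among the 9 was in the nearest 3 of another.

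The wider pathway was read from 9 lists with 99 other genes, of which 64 had enough counts. None passed the adjusted threshold with limma in either direction, and 8 were higher (12.5%) and 6 lower (9.38%) at 20 months at an unadjusted p under 0.05, against 5.84% and 4.98% of all tested genes. The median log2 fold change was -0.0081. In 4 of the 64, or 6.25%, the ages did not overlap, against 1.87% of all tested genes. With DESeq2 on the 8 samples with 1 library, 1 was called lower, against 0.441% of all tested genes. This was Adcy3, an adenylyl cyclase, which edgeR did not call. Too low to test were 4 of 6 other P2Y receptor genes, 3 of 5 other P2X genes, 2 of 3 other adenosine receptor genes and 7 of 14 other ectonucleotidase genes. P2ry1 and P2ry4, receptors for ADP and UTP, the channel P2rx2, and Gpr174, another lysophosphatidylserine receptor, were listed at 0 in all 12 samples, and Adora2a, an adenosine receptor that stimulates adenylyl cyclase, averaged 0 in aged and 0.204 in young samples.

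P2rx1, a fast-desensitizing ATP channel best known from platelets and smooth muscle, had 312, 526 and 676 normalized counts in aged samples (lowest, median, highest) and 638, 754 and 964 in young ones. The ages overlapped narrowly. Its log2 fold change was -0.69 (SE 0.17, adjusted p = 0.0586), the largest negative value among the P2 receptors, and the adjusted p ran over 28 alternatives, of which 2 passed, from 0.0284 without aged 1 to 0.820 in the 4 samples with 2 libraries. P2ry2, the receptor for ATP and UTP, was low, with 77.0, 90.4 and 198 normalized counts at 20 months and 30.1, 45.3 and 95.8 at 3 months. Its difference ran the other way from P2ry12 and P2ry13 (log2 fold change 1.01, SE 0.28, adjusted p = 0.0850). Without aged 4, its highest sample, which also had the highest neutrophil marker sum (10.2 CPM, against at most 1.44 CPM in the other aged samples), the estimate was 0.82 with an adjusted p of 0.178, and without young 1 it was 1.20 with an adjusted p of 0.0277, the only 1 of 28 alternatives to pass. A630033H20Rik, an older symbol of the P2Y family gene P2ry10b, averaged 727 ± 57.1 in aged and 969 ± 180 in young samples (log2 fold change -0.40, adjusted p = 0.103). Its adjusted p was 0.0355 without young 3, the only 1 of 28 alternatives to pass, and 0.236 without aged 3.

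Adora1, the A1 adenosine receptor, was low and variable, at 10.6 to 202 normalized counts in aged and 30.6 to 77.9 in young samples (adjusted p = 0.913).

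Downstream of Gpr34 and the P2Y receptors no gene passed the adjusted threshold with limma. Gnai2, the most abundant inhibitory G protein subunit of the lists, averaged 23166 normalized counts in aged and 21986 in young samples (log2 fold change 0.07, adjusted p = 0.871). Adcy3 averaged 568 in aged and 755 in young samples (log2 fold change -0.42, adjusted p = 0.115). Of 28 alternatives 2 passed, with adjusted p from 0.0029 with DESeq2 and 0.0155 without aged 3 to 0.248 without young 1 and 0.999 in the 4 samples with 2 libraries. Abhd12, the lipase that breaks down lysophosphatidylserine, the ligand of Gpr34, had 37093 to 43076 normalized counts at 20 months and 43423 to 49397 at 3 months. Its ages did not overlap, yet the log2 fold change of -0.22 did not pass (adjusted p = 0.0919). Slc29a1, the nucleoside transporter that clears adenosine, had 6087 to 6503 normalized counts in aged and 6806 to 7808 in young samples, again without overlap (log2 fold change -0.20, adjusted p = 0.0919). The lysosomal nucleoside transporter gene Slc29a3 averaged 26977 in aged and 28514 in young samples (adjusted p = 0.880). Chosen after their values were seen, as the other 2 without overlap, Kcnk13 and Itpr2 differed in opposite directions. Kcnk13, the potassium channel THIK-1, which sets the resting potential of microglia and is potentiated by P2Y12, averaged 5468 ± 277 in aged and 6335 ± 558 in young samples (log2 fold change -0.21, adjusted p = 0.169). Itpr2, an intracellular calcium release channel, averaged 5568 in aged and 4931 in young samples (log2 fold change 0.18, adjusted p = 0.255).

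Among the other enzymes and the inflammasome genes, larger estimates came with wide spread. Enpp2, the lysophospholipase D autotaxin, had 222, 878 and 2546 normalized counts in aged samples and 123, 299 and 596 in young ones (log2 fold change 1.27, adjusted p = 0.331). It is also a marker of the choroid plexus, and Ttr, another of its markers, had 207 to 1114 normalized counts at 20 months and 112 to 632 at 3 months (log2 fold change 1.20, adjusted p = 0.363). The part of such cells in the difference of Enpp2 was not tested. Entpd4, an intracellular relative of Entpd1, averaged 2795 in aged and 2754 in young samples (adjusted p = 0.960). Il1rn, the antagonist of the interleukin-1 receptor, averaged 54.7 in aged and 24.3 in young samples (log2 fold change 1.09, adjusted p = 0.310), and Nek7, a partner of NLRP3, 5949 and 6209.6 (adjusted p = 0.883). Panx1, a channel that releases ATP, averaged 393 in aged and 389 in young samples. Of the volume-regulated anion channel subunits, which can also pass ATP, Lrrc8d averaged 3775 in aged and 3967 in young samples (adjusted p = 0.869), and Lrrc8b had a log2 fold change of -0.43 (adjusted p = 0.552).

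**Figure D5:**
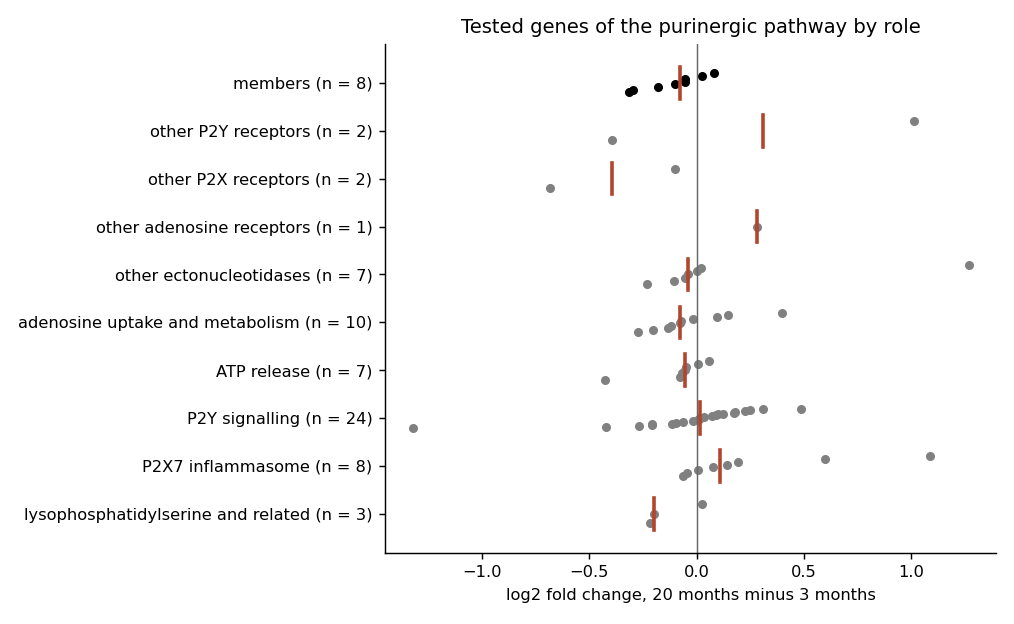
Log2 fold change (20 months minus 3 months) of the 8 purinergic genes described above (black) and of the 64 tested genes of 9 pathway lists (grey, 1 row per list), with the median of each row as a red line. The median is -0.08 over the 8 genes and -0.0081 over the 64, and no point passed the adjusted threshold.

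Genes next to the receptors were read for comparison with the locus. In the Med12l region, Med12l itself did not pass (values above), and Igsf10, an adhesion protein gene, was low. Beside P2rx4 and P2rx7, the kinase gene Camkk2 had a log2 fold change of 0.39 (adjusted p = 0.535) and Anapc5, a subunit of the anaphase-promoting complex, 0.19 (adjusted p = 0.287), while Ift81 did not pass either. Cask, which encloses Gpr34, averaged 2212 in aged and 1999 in young samples (log2 fold change 0.15, adjusted p = 0.447), the direction opposite to that of Gpr34. P2ry2 (given above) and Fchsd2 near P2ry6, and Tctn3 and Ccnj near Entpd1, were not called.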

How the data were processed

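RNA was measured in 12 samples of sorted hippocampal microglia, 6 at 20 months and 6 at 3 months, from 16 libraries. The values the authors deposited are normalized counts, a non-negative signal for each gene, in a single table with a column per sample. Per the series' design text, SmartSeq v4 cDNA and Nextera XT libraries were sequenced as read pairs, aligned with STAR, counted with samtools and processed with DESeq2, and per the submitters' processing notes the build was mm10. Their tool versions and annotation are not given in sources used here. In the 8 columns with 1 library, 100% of deposited values were whole multiples of the value of 1 read (within 0.1 read), which recovers the read counts and depth, while columns of 2 libraries are means from which reads were not recovered. In aged 2 that value is close to 1, so the multiples are less telling there.

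Genes with at least 10 normalized counts in 6 of 12 samples were tested with limma 3.58.1 (R 4.3.3, trended empirical Bayes, two-sided) on log2(normalized count + 1), adjusted by Benjamini and Hochberg over all of them. Fold changes are on that scale. Whole reads of the 8 samples were tested with edgeR 4.0.16 (quasi-likelihood) and DESeq2 1.42.0 as alternatives. The limma step was tested on simulated data. Marker sums were compared by exact permutation over 924 assignments, and correlations by 100000 permutations of the deviations over all 12 samples, not within each age. Exon lengths, coordinates and overlaps come from GENCODE vM21 (mm10) and promoter windows from RefSeq (GRCm38.p6). Besides the 9 genes, the text names, of each list, the tested gene with the smallest p and the one with the highest mean, all tested genes of the neighbouring loci, and for each of the 9 the 3 genes of highest r. List genes named at or near 0, Panx1, Kcnk13, Itpr2 and single marker genes were picked after their values were seen. The genes and lists were chosen with earlier results of these data known. Alternatives were other pseudocounts, filters, scalings and variance settings, a replicate block, library number as a covariate or a split, and leaving out samples. Some marker genes and the sums that hold them are not reported here.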

Additional observations from a re-analysis of the deposited data

Results flagged for a closer look

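Of 102 sets of 6 values examined, 7 held a sample whose gap to its nearest neighbour was large for the range of its group, and chance flags about 1 in 20. P2ry2 had 198 normalized counts in aged 4, against at most 104 in the other aged samples. In the same sample Igsf10 had 90.0 normalized counts, against at most 19.9, and the neutrophil markers summed to 10.2 CPM, against at most 1.44 CPM. Entpd4 had 3245 normalized counts in aged 5, against at most 2821, and the oligodendrocyte markers summed to 129 CPM there, against at most 108 CPM. Adcy3 had 803 normalized counts in aged 3, against at most 552. Kcnk13 had 7413 normalized counts in young 1, against at most 6428 in the other young samples. None of the 9 purinergic genes was flagged in either age.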

How the results depend on the processing

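Of the 9 genes, 1 was called lower at 20 months with CPM scaling, TMM scaling, robust empirical Bayes, limma on the 8 samples with 1 library, edgeR and DESeq2, 2 without aged 5 and aged 6, and 0 to 1 when single samples were left out. Of all genes, 48, 57 and 53 were lower under the first 3 settings, 51 with DESeq2 and 60 without aged 5 and aged 6. The called gene was P2ry13 under the scalings and the robust fit and Gpr34 in the 8 samples. P2ry13 and Gpr34 were the genes called without aged 5 and aged 6. Among the 64 tested other pathway genes, P2rx1 was lower with quantile normalization (limma adjusted p = 0.0442) and Adcy3 with DESeq2 (adjusted p = 0.0029). When single samples were left out, 0 to 1 of the 64 were called in each direction. Across all 11579 tested genes, 147 were called higher and 53 lower. The counts were 67 and 11 in the 8 samples with 1 library, 18 and 1 in the 4 with 2 libraries and 76 and 15 with edgeR. Leaving out single samples gave 102 to 175 higher and 27 to 60 lower. Every scaling moved the median of all genes by at most 0.016.

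Whether aged and young samples with the same replicate number were paired was not settled. Their deviations correlated at -0.12 to 0.11, and aged samples correlated best with their own number in 2 of 6. These correlations cannot show whether the numbers mark pairs. With the replicate block, 1 of the 9 genes was called lower (Gpr34, adjusted p = 0.0486), and 30 of all genes were lower.

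The log2 fold change of P2rx4 was -0.016 (limma), -0.0047 (edgeR) and -0.0057 (DESeq2) in the 8 samples, and -0.038 without aged 5 and aged 6. Leaving out single samples gave -0.016 to 0.076, below 0 without young 2, aged 4 or aged 5. P2rx7 was 0.0046 without aged 5 and aged 6, and -0.11 to 0.012 when single samples were left out, above 0 without young 1 or aged 6. In the 4 samples with 2 libraries Adora1 was -1.09, Med12l -0.19 and Ccnj 0.48. Entpd4 was -0.021 without aged 5 and aged 6. Without single samples Adora1 was -0.10 to 0.73 (below 0 without aged 4), Entpd4 -0.023 to 0.061 (without aged 5) and Med12l -0.036 to 0.077 (without young 1, young 3, aged 2, aged 3 or aged 5). Aged minus young, the CD11b and CD45 sum then differed by -92.0 to 75.6 CPM (above 0 without young 1, young 2 or aged 6) and the dissociation gene sum by -5.13 to 51.3 CPM (below 0 without aged 4). The causes were not tested. P2ry14 was below the filter at every depth here.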
